A study of Homo sapiens with 3 samples.

Results

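Aminoacyl-tRNA synthetases join each amino acid to its transfer RNA and so supply the charged tRNAs that ribosomes read. Human cells make most of these enzymes from separate genes for the cytosol and for the mitochondria, and all of the genes, the mitochondrial ones included, lie in the nucleus. Several cytosolic enzymes are held together in a multisynthetase complex, and many of these genes are active in every cell type because translation depends on them.

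The genes described here were 35 synthetase genes out of 20033 protein-coding genes, namely 17 for cytosolic enzymes, 16 for mitochondrial enzymes (symbols ending in 2) and 2, GARS1 and KARS1, whose products serve both compartments. They were taken as a named list, and each was represented by the ZBTB11 peak with the largest −log10 p within 3 kb of any transcription start site (TSS) that GENCODE release 44 gives for the gene. The data were chromatin immunoprecipitation sequencing (ChIP-seq) of formaldehyde-fixed NCI-H1299 cells, an established p53-null human lung cancer cell line whose genotype is labelled WT and which received no treatment. The series comprised 3 libraries, which were 1 with an antibody against the zinc finger protein ZBTB11, 1 with normal IgG and 1 Input library that was not analysed here. The study asked whether ZBTB11 occupies gene promoters as a transcription factor would. Each antibody was used in 1 library of a single cell line, so no value below has a replicate check and no test between conditions was possible. Intervals of pileups and of pileup ratios cover counting error only. Intervals of shares treat genes as independent draws and are given as a description.

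A peak is a stretch of the genome where fragments pile up above the local background. Its −log10 p grows with the confidence of the peak caller, its summit is the base with the most fragments, and its pileup is the number of fragments at the summit, recovered from the listed fold enrichment and p-value. The listed fold enrichment is pileup over background with 1 added to each. This background is the local level used by the peak caller and was itself higher at the strongest peaks, 26.1 fragments at WARS1 against 1.35 at EPRS1. It is therefore not to be read as a level of non-specific signal, and folds of strong and weak peaks rest on unlike backgrounds. The authors called peaks at a p-value below 0.05, which kept many peaks of few fragments, so a stricter p-value of 1e-05 or less (−log10 p of at least 5) was used here to call a gene occupied. On the 24 main chromosomes 346891 ZBTB11 peaks were listed, and the lowest backgrounds at the genes described here were 1.35 fragments for ZBTB11 and 1.55 for IgG. The IgG list gave peaks on chromosomes 1, 10, 21 and Y alone among these chromosomes, and it therefore served as a control for the 7 synthetase genes on chromosome 1. The other 28 genes had no control of this kind.

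The sequences under the strongest peaks are shown first, because 6 of the 10 genes with the highest pileups held a short consensus near the summit. Of these 6, HARS1 and HARS2 shared the same peak. Among all protein-coding genes with a peak at a p-value of 1e-10 or less, 31.2% held the consensus. No share at such pileups was at hand. The study gave a consensus with the forms CCGGAAG and CAGGAAG, which it found de novo in high ZBTB11 peaks of its ChIP-seq. The consensus thus came from these same data, and matches at strong peaks here are no independent support for it. Both forms were searched on both strands, and a match had to lie wholly within 50 bp of the summit. The stretches below are 29 bases of hg38, written 5′ to 3′ on the strand where the match, in capitals, reads as spelt. They are the matches nearest the summit at 9 of the 10 genes that held one and whose peak passed a p-value of 1e-05. The other gene was YARS1, the cytosolic tyrosine enzyme, whose CAGGAAG match lay 5 bp from the summit, nearer than at any of these 9 genes, and is not printed.
TARS2 (chr1:150487234-150487262, minus strand): gttccggctgaCCGGAAGaccgaaaatgt
WARS1 (chr14:100376335-100376363, minus strand): gcgccgtcgggCCGGAAGttgttccgtcc
RARS1 (chr5:168486425-168486453, minus strand): gtcagcctctcCCGGAAGcggaaaccccc
HARS1 and HARS2 (chr5:140691436-140691464, plus strand): tccggctcctcCCGGAAGtgccgaagctg
CARS1 (chr11:3057452-3057480, minus strand): ccgggcgtgtcCCGGAAGacgggcccggc
PARS2 (chr1:54764722-54764750, plus strand): aaatcaccgttCCGGAAGtactttctagg
GARS1 (chr7:30594736-30594764, minus strand): cgacacaaaacCCGGAAGgaccccgccga
YARS2 (chr12:32755306-32755334, plus strand): cccactgccgcCAGGAAGtccaccaggtg
The match read on the strand of its gene at CARS1, WARS1 and HARS2, and on the opposite strand at TARS2, RARS1, HARS1, PARS2, GARS1 and YARS2. In these stretches the first 7 sequences carry the CCGGAAG form, and YARS2, the mitochondrial tyrosine enzyme, carries CAGGAAG.

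A ZBTB11 peak lay within 3 kb of a start at all 35 synthetase genes, as at 87.7% of all protein-coding genes, so the presence of a peak alone said little about these genes. At a p-value of 1e-05 or less, 27 of 35 genes were occupied (77.1%, Wilson 95% interval 61.0% to 87.9%), whereas the share over all protein-coding genes was 46.9%. At 1e-10 or less the count was 20, beside a background of 31.8%. A q-value of 0.05 or less, which corrects for the number of places examined, was reached by 30 genes against 55.3% of protein-coding genes. The 5 genes that missed it were FARSB, SARS1, AARS2, LARS2 and VARS2. All starts of a gene were searched, up to 36 at QARS1, and more starts give more places for a strong peak. With the outermost start alone for each gene (1 start per gene below), 24 genes had a peak at 1e-05 or less. No protein-coding share was at hand at that setting.

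The strength of occupancy covered a wide range. The −log10 p ran from 2.57 at FARSB to 431 at TARS2, with a median of 14.9, while the median over all protein-coding genes was 4.54 (quartiles 2.57 and 15.6). The median gene of the list stood at percentile 74.2 of protein-coding genes, and 27 of 35 lay above the protein-coding median. There were 10 genes with at least 100 fragments at the summit, 5 cytosolic and 5 mitochondrial, and each of these also lay above the protein-coding 90th percentile of 62.3. Peaks among the 1000 strongest of the list were found at 5 genes, which were WARS1, RARS1, HARS1, HARS2 and TARS2, against 6.01% of protein-coding genes. The genes on either side of the threshold were LARS1 at 5.47 and SARS2 at 5.64 just inside it, and WARS2 at 4.14 and EPRS1 and NARS2 at 4.07 each just outside.

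**Figure D1:**
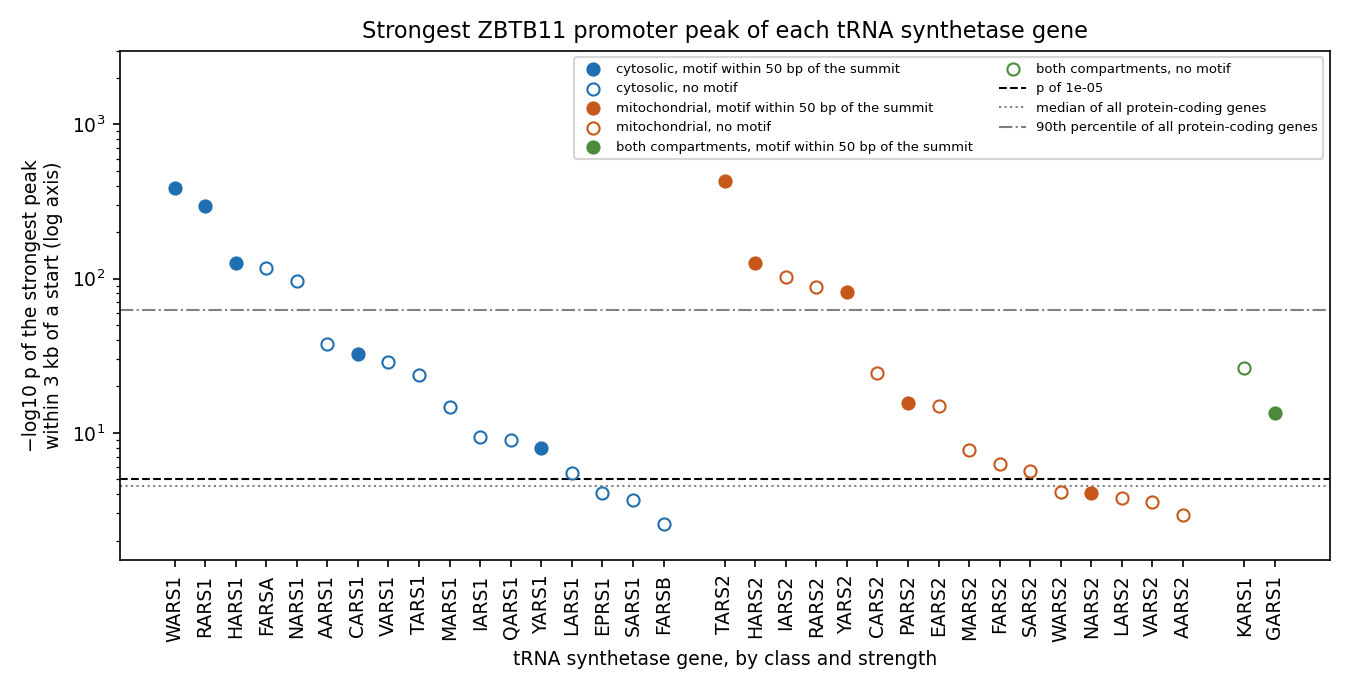
The −log10 p (log axis) of the strongest ZBTB11 promoter peak is plotted for each of the 35 synthetase genes, grouped by compartment, with filled points for genes that had CCGGAAG or CAGGAAG within 50 bp of the summit and open points for the others. Of the 35 points, 27 lie at or above the dashed line at a p-value of 1e-05, TARS2 (431) and WARS1 (389) stand highest, and the cytosolic and mitochondrial classes each reach from the top of the plot to below the line.

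Among the cytosolic genes, 14 of 17 were occupied (82.4%, 59.0% to 93.8%). WARS1, which encodes the tryptophan enzyme, had the strongest peak, at chr14:100375878-100376825 with rank 230 of the list. It stood at 461 fragments (exact Poisson 95% interval 420 to 505) over a background of 26.1, with 17.0-fold enrichment and a −log10 p of 389. Its summit lay in an exon of the untranslated region (UTR), 1 bp from an annotated TSS and 986 bp from that of the canonical transcript, and 85 bp from the TSS of WDR25 on the other strand.

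RARS1, the arginine enzyme and part of the multisynthetase complex, followed at chr5:168486064-168486927 with rank 388. The pileup was 318 fragments (284 to 355) over a background of 14.6, the fold enrichment 20.4 and the −log10 p 296, with the summit 49 bp upstream of a TSS and outside the annotated gene. No TSS of another protein-coding gene lay within 1 kb of the summit of RARS1. It was the only gene of the multisynthetase complex list with over 100 fragments.

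HARS1 and HARS2, the cytosolic and the mitochondrial histidine enzymes, are neighbours on opposite strands and shared a single peak at chr5:140691116-140691916 with rank 953. This peak had 140 fragments (118 to 165) over a background of 7.15, with 17.3-fold enrichment and a −log10 p of 126. The summit lay in a UTR exon, 17 bp from a TSS of HARS1 and 1 bp from a TSS of HARS2, so the signal could not be given to either gene. Counted once, 26 genes passed the threshold in place of 27.

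The cytosolic phenylalanine enzyme is built from an alpha and a beta subunit, whose genes stood far apart. FARSA, for the alpha subunit, had 136 fragments (114 to 161) and a −log10 p of 117 with the summit 11 bp upstream of a TSS (chr19:12933304-12934039, rank 1018). FARSB, for the beta subunit, had 5 fragments (1.62 to 11.7) and a −log10 p of 2.57, the lowest of the list, with the summit in an intron 291 bp downstream of a TSS. The intervals of these 2 pileups did not overlap, and only the peak of FARSA passed the threshold.

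NARS1, the asparagine enzyme, was the fifth cytosolic gene with at least 100 fragments, with 108 (88.6 to 130) and a −log10 p of 96.2 at a summit in a UTR exon 171 bp upstream of a TSS. CARS1, the cysteine enzyme, had 39 fragments and a −log10 p of 32.4, and its window held 2 matches to CCGGAAG. VARS1, the valine enzyme, had 42 fragments and a −log10 p of 28.9 at a summit in a coding exon, 107 bp from the start of an alternative transcript and 2899 bp from the canonical TSS. TARS1, the threonine enzyme, had 34 fragments and a −log10 p of 23.8 with the summit 25 bp downstream of a TSS. CARS1, VARS1 and TARS1 thus formed a middle group between NARS1 and the weaker cytosolic genes.

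The remaining occupied cytosolic genes had lower peaks. MARS1, the methionine enzyme, reached a −log10 p of 14.7 with 24 fragments, and the summit lay in a UTR exon 19 bp upstream of a TSS of MARS1. IARS1 (isoleucine) reached 9.35 with 16 fragments and QARS1 (glutamine) 8.98 with 15. YARS1, the tyrosine enzyme (chr1:32817149-32818334, rank 9160), reached 7.97 with 18 fragments over a background of 3.61, with 4.12-fold enrichment, at a summit 49 bp upstream of its TSS and 342 bp from a TSS of S100PBP. LARS1, the leucine enzyme (chr5:146182325-146183192, rank 13530), was the weakest gene inside the threshold, with 14 fragments (7.65 to 23.5) over 3.43, a fold enrichment of 3.38 and the summit 154 bp upstream of a TSS. The 3 cytosolic genes below the threshold were FARSB, EPRS1 and SARS1.

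AARS1, the alanine enzyme, calls for a separate account. The peak chosen for it by the 3 kb rule (chr16:70251591-70252201, rank 2655) had 45 fragments (32.8 to 60.2), a fold enrichment of 11.7 and a −log10 p of 37.6. Its summit lay outside AARS1, 3256 bp downstream of the nearest start of an alternative AARS1 transcript and 37629 bp from the canonical TSS, and 63 bp from the TSS of EXOSC6, a gene for a subunit of the RNA exosome on the same strand. With peaks within 1 kb of a TSS alone, AARS1 fell to 2.57, with 1 start per gene to 2.52, and with the summit required to lie within 3 kb to 3.29, each below the threshold. AARS1 therefore counts as occupied only through a peak at the start of another gene.

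Among the mitochondrial genes, 11 of 16 were occupied (68.8%, 44.4% to 85.8%). TARS2, the mitochondrial threonine enzyme, carried the strongest peak of all 35 genes, at chr1:150486934-150487661 with rank 58. It stood at 443 fragments (403 to 486) over a background of 18.3, with 23-fold enrichment and a −log10 p of 431, at percentile 99.6 of protein-coding genes. The summit lay outside the annotated gene, 142 bp upstream of the nearest TSS, and the match to CCGGAAG lay 24 bp from it.

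IARS2, the mitochondrial isoleucine enzyme (chr1:220093815-220094666, rank 1149), had 114 fragments (94 to 137) over 5.86, a fold enrichment of 16.8 and a −log10 p of 103, with the summit 1 bp from its TSS in a UTR exon. RARS2, the arginine enzyme, had 105 fragments (85.9 to 127) and a −log10 p of 88.6, with the summit exactly at a TSS (0 bp) and 74 bp from a TSS of ORC3, a gene of the origin recognition complex on the other strand. YARS2, the tyrosine enzyme, had 103 fragments (84.1 to 125) and a −log10 p of 82.0. Unlike those of TARS2, IARS2 and RARS2, the summit of YARS2 lay inside a coding exon, 465 bp downstream of the nearest TSS.

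A middle group of mitochondrial genes followed. CARS2 (cysteine) had 37 fragments and a −log10 p of 24.4 in a non-coding exon, 64 bp from the start of an alternative transcript, 6306 bp from the canonical TSS and 314 bp from a TSS of ING1, a gene for a chromatin reader. PARS2 (proline; chr1:54764219-54764959, rank 5310) had 23 fragments (14.6 to 34.5) over 2.43, a fold enrichment of 7.01 and a −log10 p of 15.6, with the summit 180 bp upstream of its TSS. EARS2 (glutamate) had 22 fragments and a −log10 p of 14.9, with a TSS of UBFD1 542 bp away. MARS2 (methionine) had 13 fragments and a −log10 p of 7.78 at a summit in its coding exon, 774 bp downstream of the TSS.

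FARS2 (phenylalanine) and SARS2 (serine) were occupied at summits that lay nearer to the TSS of another gene than to their own. At FARS2 the −log10 p was 6.32 with 13 fragments, 518 bp from its own TSS and 195 bp from that of LYRM4, a gene of iron-sulfur cluster assembly. At SARS2 it was 5.64 with 19 fragments over a background of 5.68, 385 bp from its own TSS and 149 bp from that of MRPS12, which encodes a mitochondrial ribosomal protein.

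The 5 mitochondrial genes below the threshold were WARS2 (tryptophan, 4.14), NARS2 (asparagine, 4.07), LARS2 (leucine, 3.78), VARS2 (valine, 3.54) and AARS2 (alanine, 2.94), each given as −log10 p. Their pileups were 7 to 10 fragments. The summit of WARS2 (chr1:119140094-119140570, rank 20416) held 8 fragments (3.45 to 15.8) over 1.70, a fold enrichment of 3.33, and lay in a non-coding exon 308 bp downstream of a TSS. That of NARS2 lay in an intron 1940 bp from the nearest TSS, and that of VARS2 lay 2 bp from a TSS, so a summit at a start site went with both strong and weak peaks.

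GARS1 and KARS1, the glycine and lysine enzymes, each give rise to a cytosolic and a mitochondrial form. Both were occupied. GARS1 (chr7:30594498-30595668, rank 5957) had 24 fragments (15.4 to 35.7) over a background of 3.33, with 5.78-fold enrichment and a −log10 p of 13.5, with the summit in an intron of the gene, 92 bp upstream of the nearest TSS and at the very start (0 bp) of the long non-coding RNA GARS1-DT on the other strand. KARS1 (chr16:75647162-75647951, rank 3512) had 43 fragments (31.1 to 57.9) over 4.90, a fold enrichment of 7.46 and a −log10 p of 26.1, in a UTR exon 84 bp downstream of a TSS and 250 bp from a TSS of TERF2IP, a telomere protein gene on the other strand. These values lay between the weakest and the strongest genes of both other classes. The GARS1 summit lay 138 bp upstream of the canonical TSS. With the outermost start alone in place of all transcripts, GARS1 fell to a −log10 p of 2.16 whereas KARS1 did not change. For GARS1 that start was not the canonical one, so its fall does not describe the canonical promoter.

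The cytosolic and mitochondrial classes were then compared as groups. The shares occupied, 82.4% and 68.8%, had intervals that overlapped over most of their length. These intervals treat the genes of a named list as independent draws, although HARS1 and HARS2 entered both classes by the same peak. A difference between the classes was therefore not tested. The median −log10 p was 23.8 for cytosolic genes (range 2.57 to 389) and 11.3 for mitochondrial genes (2.94 to 431), a difference of 12.5. This difference depended on how a start was defined. It was 3.38 with peaks within 1 kb of a TSS, 4.14 with basic transcripts and 7.93 without AARS1. With 1 start per gene, the outermost annotated one, it was −1.97, where MARS1 fell to 2.09 and the order of the classes turned. The MARS1 summit lay 63 bp from the canonical TSS, so this turn does not describe canonical promoters. The 7 genes of the multisynthetase complex on the list (EPRS1, IARS1, LARS1, MARS1, QARS1, RARS1 and KARS1) had 6 occupied with a median of 9.35, and the 11 other cytosolic genes had 9 occupied with a median of 32.4. That division was made with the values known and is given as a description.

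**Figure D2:**
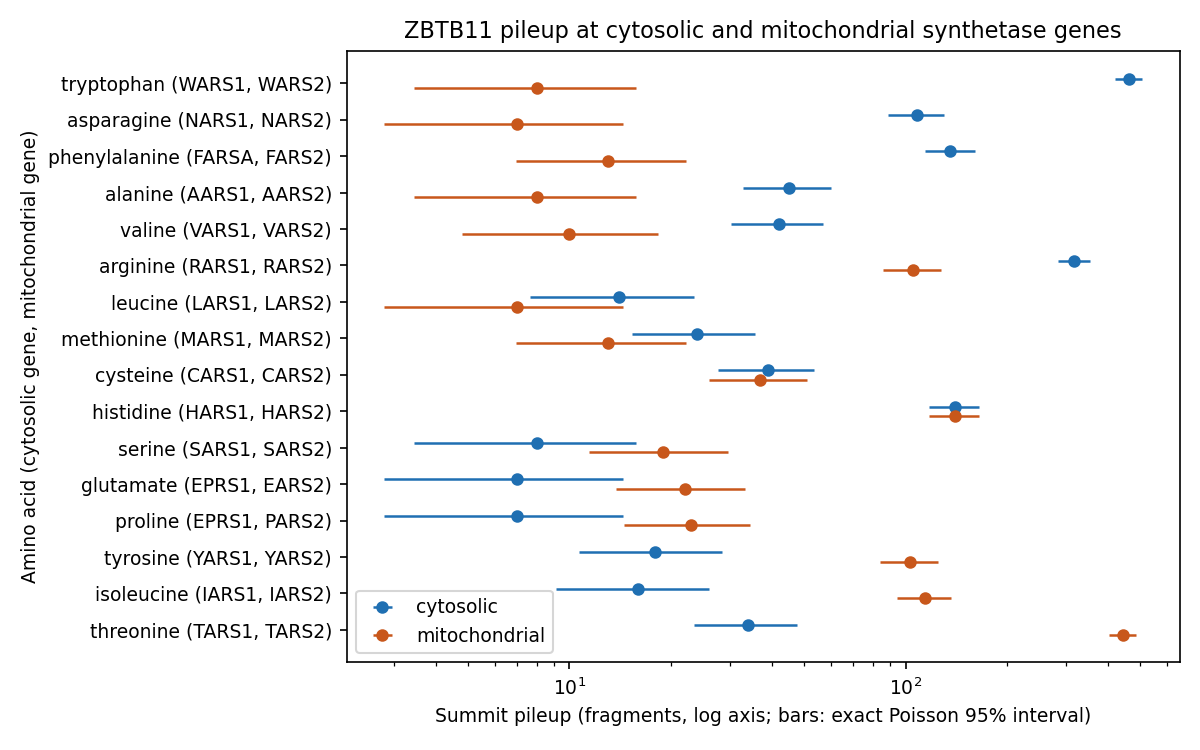
Summit pileups in fragments (log axis) with exact Poisson 95% intervals are plotted for the cytosolic and the mitochondrial gene of each of 16 amino acids, ordered by their ratio. FARSA stands for the cytosolic phenylalanine enzyme. The tryptophan pair (461 against 8) and the threonine pair (34 against 443) mark the ends, and the histidine genes coincide because they share 1 peak.

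Set side by side by amino acid, the enzymes of the same amino acid often differed in occupancy, and in both directions. Of 16 pairs, the cytosolic gene had the stronger peak in 9, the mitochondrial gene in 6, and the histidine genes shared theirs. The cytosolic phenylalanine enzyme entered by FARSA, the stronger of its subunit genes. FARSB, at a −log10 p of 2.57, lay below FARS2 at 6.32, so FARSB in its place would turn this pair. Both genes of a pair were occupied in 8 pairs, 1 of the genes alone in the other 8 (5 cytosolic, 3 mitochondrial), and in 0 pairs were both below the threshold. In 11 of the 15 pairs on different peaks the interval of the pileup ratio excluded 1.

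The cytosolic gene was higher by pileup in 6 of these 11 pairs. For tryptophan the ratio of WARS1 to WARS2 was 57.6 (exact 95% interval 29 to 134). For asparagine, NARS1 exceeded NARS2 by 15.4 times (7.24 to 39.3), and for phenylalanine, FARSA exceeded FARS2 by 10.5 times (5.92 to 20.2). Valine (4.20, 2.07 to 9.39) and arginine (3.03, 2.42 to 3.81) showed smaller ratios, and in the arginine pair both genes had over 100 fragments. The sixth pair was alanine at 5.63 (2.62 to 13.8), which rests on the peak at EXOSC6.

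In the other 5 pairs the mitochondrial gene was higher. TARS2 exceeded TARS1 by 13 times (9.19 to 19.1), IARS2 exceeded IARS1 by 7.13 times (4.20 to 12.9) and YARS2 exceeded YARS1 by 5.72 times (3.45 to 10.0). PARS2 and EARS2 exceeded EPRS1, the bifunctional cytosolic enzyme for proline and glutamate, by 3.29 times (1.36 to 9.07) and 3.14 times (1.3 to 8.71), so these pairs share the 7 fragments of EPRS1. For cysteine (1.05, 0.655 to 1.70), leucine (2.0, 0.755 to 5.86), methionine (1.85, 0.903 to 3.95) and serine (2.38 towards SARS2, 0.993 to 6.27) the interval included 1, and no difference was detectable at these pileups. Cysteine had the narrowest of these intervals because CARS1 and CARS2 had 39 and 37 fragments, more than any other gene in these pairs.

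The IgG library provided the background at the 7 genes on chromosome 1. All 7 had an IgG peak within 3 kb of a TSS, as did 68.7% of the protein-coding genes of chromosomes 1, 10 and 21, where ZBTB11 peaks were found for 87.3%. The IgG pileups were 5 to 8 fragments with a −log10 p of 2.12 to 4.44, and 0 of 7 passed a p-value of 1e-05, which 1.99% of the protein-coding genes of these chromosomes did. With ZBTB11, 4 of the 7 passed.

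TARS2 had 443 fragments with ZBTB11 and 8 with IgG, a ratio of 55.4 (exact 95% interval 27.9 to 129), and IARS2 had 114 and 6, a ratio of 19.0 (8.46 to 52.9). PARS2 had 23 and 8 fragments, a ratio of 2.88 (1.24 to 7.43). For these 3 genes the ZBTB11 pileup exceeded that of IgG beyond counting error. YARS1 had 18 and 8 fragments, and its ratio of 2.25 had an interval of 0.931 to 5.98. YARS1 passed the p-value threshold with ZBTB11, yet its pileup could not be told from that of the strongest IgG peak. This IgG peak lay 22544 bp from the ZBTB11 summit and did not overlap the ZBTB11 peak.

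The 3 genes of chromosome 1 below the threshold were close to the IgG level. EPRS1 (chr1:220046197-220046627, summit in a coding exon 68 bp downstream of a TSS) had 7 ZBTB11 fragments over 1.35, a fold enrichment of 3.40, and 6 IgG fragments, a ratio of 1.17 (0.336 to 4.20). SARS1, the serine enzyme (chr1:109213645-109213963, rank 30934), had 8 fragments over 1.96, a fold enrichment of 3.04 and a −log10 p of 3.69 at a summit 139 bp upstream of its TSS, and 6 IgG fragments, a ratio of 1.33 (0.406 to 4.66). WARS2 had 8 and 5 fragments, a ratio of 1.60 (0.462 to 6.22). The 2 libraries were taken as deposited, with no scaling, and the IgG library had the higher genome-wide background. The IgG peak overlapped that of ZBTB11 at IARS2, SARS1 and WARS2, and at the other 4 genes the strongest IgG peak lay elsewhere, near another annotated start or at some distance from the peak, 2210 bp (PARS2) to 78165 bp (EPRS1) from the ZBTB11 summit.

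**Figure D3:**
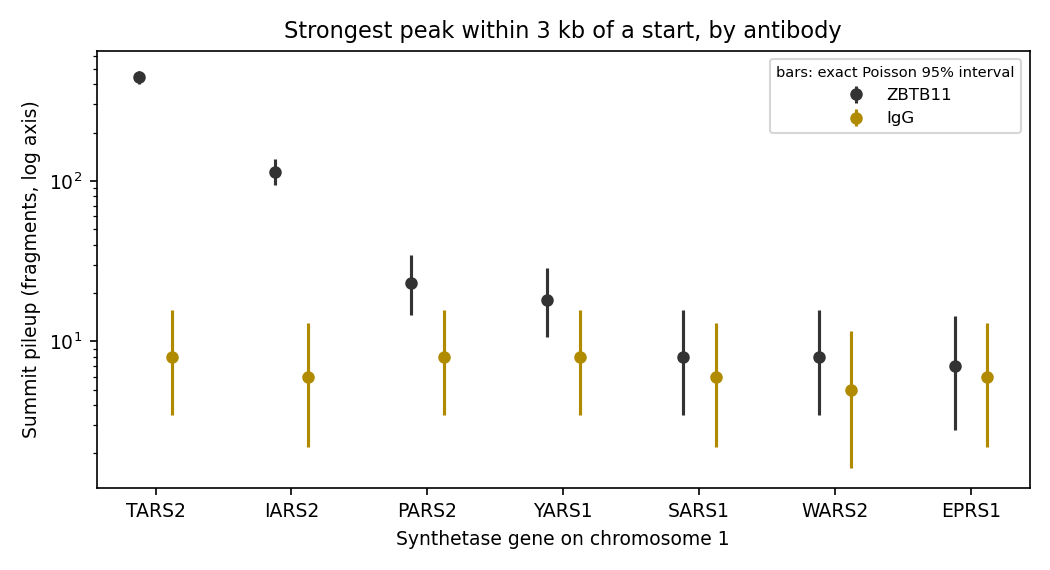
Summit pileups in fragments (log axis) with exact Poisson 95% intervals are plotted for the strongest ZBTB11 and the strongest IgG peak within 3 kb of a TSS at the 7 synthetase genes on chromosome 1. IgG stays between 5 and 8 fragments at every gene while ZBTB11 ranges from 7 (EPRS1) to 443 (TARS2), and the intervals are apart at TARS2 and IARS2.

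The position of the summits was measured next. They lay within 100 bp of a TSS of the same gene for 18 of 35 genes and within 500 bp for 31, and the exceptions were AARS1, NARS2, MARS2 and FARS2. The nearest of all annotated starts was used, and genes had up to 36 of them (QARS1), which favours short distances. No share over all protein-coding genes was at hand for comparison. By annotation, 11 summits lay outside the gene, 9 in UTR exons, 6 in coding exons, 5 in introns and 4 in non-coding exons. Of the 10 genes with at least 100 fragments, the distance to the nearest start had a median of 14 bp, and YARS2 at 465 bp was the farthest. Measured from the canonical TSS, YARS2 lay at 566 bp and WARS1 lay farthest of these 10, at 986 bp. The peaks of occupied genes were 852 bp wide at the median.

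**Figure D4:**
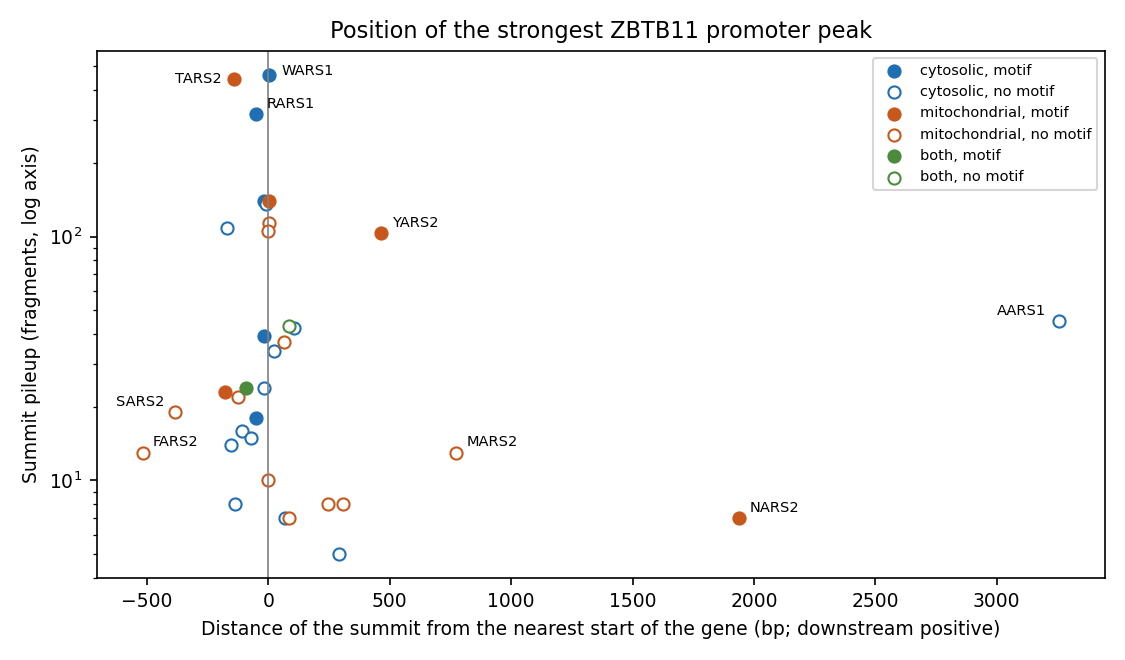
The summit pileup in fragments (log axis) is plotted against the distance in bp from the summit to the nearest TSS of the same gene, with downstream positive, for all 35 synthetase genes, and filled points mark a match to the consensus within 50 bp of the summit. Points gather around 0, with 31 of 35 within 500 bp, and AARS1 (3256 bp) and NARS2 (1940 bp) lie farthest downstream.

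Many of the occupied genes shared their peak with a neighbour. For 12 of the 27 occupied genes (44.4%, 27.6% to 62.7%) the summit lay within 1 kb of a TSS of another protein-coding gene, against a background of 32.1% of occupied protein-coding genes, a value inside the interval. The neighbour lay on the opposite strand at 11 genes and on the same strand at AARS1 alone. None (0) of the 8 genes below the threshold had such a neighbour, and no share over unoccupied protein-coding genes was at hand for comparison. The median −log10 p was 25.3 for the 12 genes with a shared peak, HARS1 and HARS2 entering by the same one, and 28.9 for the 15 others. A shared peak was found at 4 of the 10 genes with at least 100 fragments (WARS1, HARS1, HARS2 and RARS2). Starts of long non-coding RNAs lay within 1 kb at 5 genes, which were CARS1, TARS1, WARS2, YARS2 and GARS1, all on the opposite strand. In such a peak the ChIP-seq signal belongs to the region and cannot be told apart between the genes.

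The consensus was found within 50 bp of the summit at 11 of 35 genes, against 15.8% of protein-coding genes with a peak. They comprised 5 cytosolic genes (CARS1, HARS1, RARS1, WARS1 and YARS1), 5 mitochondrial genes (HARS2, NARS2, PARS2, TARS2 and YARS2) and GARS1. Among the 27 occupied genes, 10 held it (37.0%, 21.5% to 55.8%), and the background of 25.2% among occupied protein-coding genes lay within that interval. NARS2, the other holder, was below the threshold. In equal windows 500 bp to either side of the 35 summits the consensus was present in 2 of 70 (2.86%, 0.787% to 9.83%). At the same 35 summits themselves it was present in 11. Because the consensus was derived from peaks of these data, its presence near summits is not an independent result. The shared peak of HARS1 and HARS2 entered both counts for each gene. The nearest match lay 5 to 37 bp from the summit at the occupied genes, with a median of 17 bp.

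The 10 occupied genes with the consensus, which are YARS1 and the 9 genes of the stretches above, had a median −log10 p of 104 and a median pileup of 121.5 fragments, and the 17 occupied genes without it had medians of 23.8 and 34 fragments. HARS1 and HARS2 entered by the same peak. With that peak counted once, the middle gene with the consensus was YARS2, at a −log10 p of 82.0 and 103 fragments. The ranges with and without the consensus overlapped widely. The consensus came from strong peaks of these data, so the difference of the medians is no independent support for it. With the consensus, −log10 p ran from 7.97 (YARS1) to 431 (TARS2), and without it from 5.47 (LARS1) to 117 (FARSA). Of the 10 genes with at least 100 fragments, 6 held the consensus (HARS1, HARS2, RARS1, WARS1, TARS2 and YARS2), whereas FARSA, NARS1, IARS2 and RARS2 did not. Of the 17 other occupied genes, 4 held it. Over all protein-coding genes the share also rose with strength, from 15.8% with any peak to 25.2% at 1e-05 and 31.2% at 1e-10. No share at 100 fragments or more was at hand. The GC content within 50 bp of the summit had similar medians, 65.3% with and 64.4% without the consensus.

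The promoters themselves were also searched, wherever their peaks lay, in the RefSeq promoter sequences of assembly GRCh38.p14. The window ran from 250 bases before to 50 after a gene start, and the first window listed for each gene was used. The consensus came from ZBTB11 peaks of these same data, so it is not independent of the occupancy given below. Of the 35 genes, 30 were matched by symbol, and AARS2, LARS1, VARS1, VARS2 and YARS1 were not. CCGGAAG, on either strand, was present in 14 of 30 (46.7%, 30.2% to 63.9%), and in 14.4% (13.9% to 15%) of 15345 protein-coding genes in the table. It was present in 24.8% (23.8% to 25.8%) of the 7547 of these that were occupied and in 4.35% of the others, while 13 of the 24 occupied synthetase genes in the table held it (54.2%, 35.1% to 72.1%). The cytosolic and the mitochondrial class each had 6 of 14 (42.9%, 21.4% to 67.4%). With CAGGAAG also counted, the shares were 50% of the synthetase genes and 25.3% of protein-coding genes, and 22.2% of the 27305 genes of any kind.

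The 14 synthetase genes with CCGGAAG in the promoter were CARS1, EARS2, GARS1, HARS1, HARS2, KARS1, MARS2, NARS1, PARS2, RARS1, SARS1, SARS2, TARS2 and WARS1. Of these, 13 were occupied (92.9%, 68.5% to 98.7%), the exception being SARS1, and 84.7% of all protein-coding genes with CCGGAAG in the promoter were occupied as well, a share inside that interval. Their median −log10 p was 29.3, close to the 28.2 of those protein-coding genes. Of the 16 without it, 11 were occupied (68.8%, 44.4% to 85.8%), against 43.2% of protein-coding genes without it. Their median was 12, against 4.07, and FARSA at 117 was the highest of them. A match to these letters is a description of the sequence and was not tested as a binding site.

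**Figure D5:**
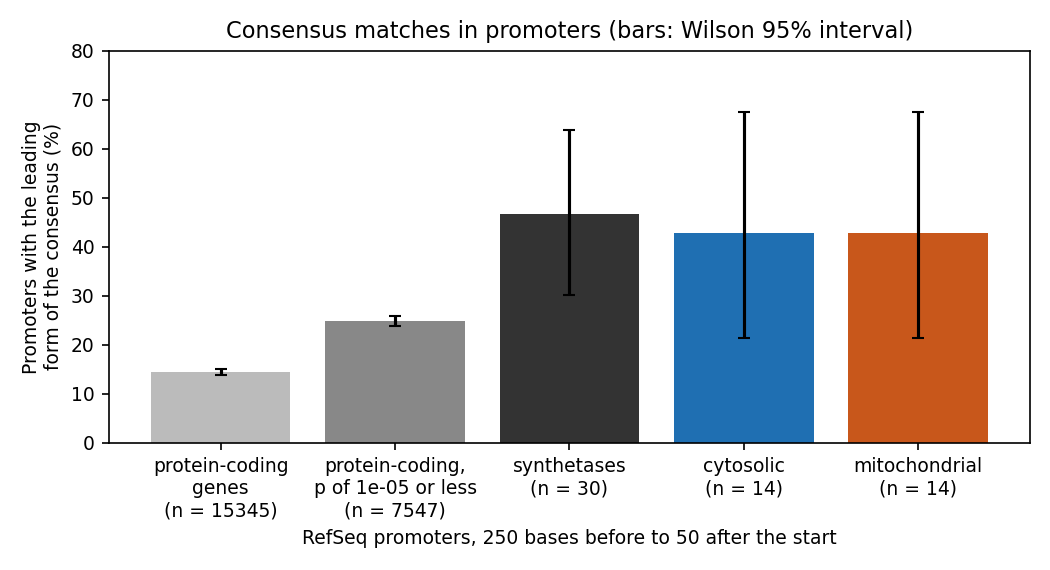
Bars give the percentage of RefSeq promoters (250 bases before to 50 after the start, first window listed for each gene) that hold CCGGAAG on either strand, with Wilson 95% intervals, for protein-coding genes, for those occupied at a p-value of 1e-05 or less, for the 30 synthetase genes in the table and for their classes. The synthetase bar (46.7%) stands above those of all (14.4%) and of occupied (24.8%) protein-coding genes, and the cytosolic and mitochondrial bars are equal at 42.9%.

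Finally, 13 accessory genes of tRNA charging were examined, a list that was made with earlier results of these data known. Of these, 6 were occupied (46.2%, 23.2% to 70.9%), a share close to the 46.9% of all protein-coding genes, and the median −log10 p was 4.90. PSTK, the kinase that prepares tRNA for selenocysteine, had a −log10 p of 398 and 427 fragments, close to the values of TARS2 and WARS1. It lies on chromosome 10, where IgG gave 7 fragments, a ratio of 61.0 (29.4 to 153), and its summit lay at a TSS (0 bp) of C10orf88. DTD1, which removes D-amino acids from tRNA, reached 174, and AIMP2, a scaffold of the multisynthetase complex, reached 26.5 at a peak shared with PMS2. MTFMT, which formylates the mitochondrial initiator tRNA, reached 10.3. SEPSECS, which completes selenocysteine on tRNA, reached 9.80, and TARS3, a further threonine enzyme, reached 6.34. The scaffold genes AIMP1 (4.04) and EEF1E1 (4.0) and the genes GATB (2.57), GATC (3.93) and QRSL1 (2.62), which encode the mitochondrial amidotransferase that makes glutaminyl-tRNA, were below the threshold. The editing genes DTD2 (4.90) and AARSD1 (3.29) were as well.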

How the data were processed

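ChIP-seq of NCI-H1299 cells was processed by the authors, who sequenced both ends of each fragment, used BWA for alignment to hg38, and ran MACS on each antibody separately at a p-value below 0.05. The MACS release that wrote the files was not certain. The deposited columns used were the fold enrichment of the summit over local background (a ratio), the −log10 p and the −log10 q. The deposited score repeated the −log10 p and was not used. From the fold enrichment and p-value, the whole-number pileup and the background were solved with a Poisson model. The largest error of the recovered −log10 p was 2.5e-05, and the solver, the assignment of peaks to genes and the motif search were tested on simulated data. Depth is known only as these summit pileups.

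Starts came from all GENCODE release 44 transcripts on chromosomes 1 to 22, X and Y. Shares carry Wilson 95% intervals, pileups exact Poisson intervals and pileup ratios exact binomial intervals. Python 3.11.15, NumPy 2.4.6, pandas 2.3.3 and SciPy 1.17.1 were used. Groups came from the sample titles. All 35 members are named, with full values for the 3 strongest of each class, GARS1, KARS1, the genes on chromosome 1 and those next to the threshold. Alternatives were the distance to the TSS, the transcripts used, the peak standing for a gene, the thresholds, the class of GARS1 and KARS1, the motif window and the exclusion of shared peaks. The members and lists were chosen with earlier results of these data known. The Input library was not analysed here.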

Additional observations from a re-analysis of the deposited data

How the results depend on the processing

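Over 9 results and 55 alternatives, of which 4 (those without AARS1 or with the histidine genes counted once) were chosen after seeing the data, 43 values held, 11 moved and 1 reversed. Leaving out the 12 genes whose peak lay near another protein-coding start kept 23 genes, of which 15 were occupied (9 of 12 cytosolic, 5 of 10 mitochondrial). The 23 genes had a median −log10 p of 9.35, and the mitochondrial gene was stronger in 3 of the 6 pairs left. These counts fall partly because fewer genes were counted. All 12 genes left out were occupied, so a lower share was built into the exclusion. No protein-coding share after the same exclusion was at hand. With the outermost start alone for each gene, AARS1, MARS1 and GARS1 fell below the threshold and the median over all genes was 9.35. The summits of MARS1 and GARS1 lay 63 bp and 138 bp from their canonical TSS. At this setting the cytosolic minus mitochondrial difference of medians, 12.5 as reported, reversed to −1.97. This difference was 3.38 within 1 kb, 4.14 with basic transcripts and 7.93 without AARS1. A motif window of 100 bp gave 17 genes in place of 11. With a q-value of 0.05 or less, 0 of 7 genes had an IgG peak in place of 7. No paired analysis was possible because the antibodies were each used in a single library. Pileups of 5 to 10 fragments limit what can be said of the genes below the threshold, and no leave-one-out value exists.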

Other observations

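Away from promoters, ZBTB11 peaks at the synthetase genes were weak. Beyond 3 kb of any annotated start of the gene, 26 of the 35 gene bodies held 222 peaks in all, and 0 of these had a p-value of 1e-05 or less. The highest −log10 p among them was 4.29, in FARS2, and 9 genes had no such peak. No share of gene-body peaks over all protein-coding genes was at hand. Whether these counts are particular to the synthetase genes was therefore not tested.

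Within 3 kb of their starts, the 35 genes had 114 peaks, HARS1 and HARS2 each counting their common one. The next strongest peak, present at 30 genes, had a −log10 p between 1.31 and 13.3 with a median of 2.52. CARS2, at 13.3, was the only gene whose next strongest peak also passed 1e-05, and 5 genes (HARS1, HARS2, MARS2, PARS2 and YARS2) had a single peak. These counts likewise had no share over all protein-coding genes beside them.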
